A study of Homo sapiens with 6 samples.

Results

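Oxidative phosphorylation uses 5 protein complexes of the inner mitochondrial membrane. Complexes I and II pass electrons from NADH and succinate to ubiquinone, complex III passes them to cytochrome c and complex IV to oxygen, and complex V, the ATP synthase, uses the resulting proton gradient to make ATP. Complexes I, III, IV and V are built from subunits of both genomes, since a few core subunits are encoded by mitochondrial DNA and all others by nuclear genes, whereas complex II is entirely nuclear. NDUFAB1, the mitochondrial acyl carrier protein, is both an accessory subunit of complex I and the carrier of mitochondrial fatty acid synthesis, which feeds lipoic acid synthesis and iron-sulfur cluster assembly. The members were every protein-coding gene of GENCODE 29 whose symbol begins with NDUFA, NDUFB, NDUFC, NDUFS, NDUFV, SDHA, SDHB, SDHC, SDHD, UQCR, COX4I, COX5, COX6, COX7, COX8, ATP5 or MT-. This gave 116 of the 58735 genes in the count tables, of which 19951 were protein-coding. They comprised NDUFAB1, 87 other nuclear-encoded subunits, 13 mitochondrially encoded subunits, 12 assembly factors caught by the prefixes, the inhibitor ATP5IF1 and 2 read-through genes.

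Transcript levels were measured by RNA-seq of total RNA from Jurkat cells, a long-established line from a human T cell leukaemia, infected with lentivirus that expressed a short hairpin RNA. The control hairpin (shCtrl, 3 libraries) was set beside one directed at SATB1 (shSATB1, 3 libraries), a gene for a chromatin-organising DNA-binding protein of T cells, and both groups carried the lentiviral vector and the same culture medium. The labels give neither the number of hairpin constructs per group nor whether replicates came from separate infections. The p-values therefore cover only library-to-library spread, which may be technical. The question put to the genes of oxidative phosphorylation was how NDUFAB1, the other nuclear-encoded subunits and the mitochondrially encoded subunits compared between the 2 groups.

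SATB1 itself fell from 265.6 ± 11.6 to 102.0 ± 1.94 CPM (mean ± SD of 3 libraries per group here and throughout), where CPM are counts scaled to the TMM-adjusted number of reads in genes of each library. Reads in genes numbered 26626539 to 28913623 per library, so that 3 reads corresponded to 0.104 to 0.113 CPM, a limit that covers counting error only. The T cell markers CD3D, CD3E, CD3G, CD2, CD7, CD5, LCK and TRBC1 were all detected and summed to 2734 to 3156 CPM in shCtrl and 2479 to 2665 CPM in shSATB1. Markers of other cells were at or near 0, with EPCAM at 0 reads in every library, except the B cell gene CD79A at 47.5 to 64.6 CPM and the fibroblast gene COL1A1. COL1A1 did not overlap between the groups, at 14.1 to 17.1 CPM in shCtrl and 20.1 to 21.5 CPM in shSATB1, and the summed epithelial and fibroblast markers in shSATB1 were at 133.7% of shCtrl, beside 86.7% for the T cell markers. The part of these markers in the results was not tested. The share of reads outside annotated exons was 10.2%, 7.77% and 9.36% for the 3 controls and 11.7%, 10.9% and 11.6% for the 3 shSATB1 libraries. That share did not overlap between the groups, and shCtrl 2 stood lowest.

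Of the 116 members, 108 had enough reads to be tested and 8 did not. Among those tested, 52 fell in shSATB1, 0 rose and 56 did not pass (quasi-likelihood test in edgeR, with Benjamini-Hochberg adjusted p under 0.05 over 17520 genes). Over all genes tested, 16.6% fell and 14.3% rose (30.9% in either direction), against 48.1% and 0% of these members. The median log2 fold change of the members tested was -0.24, with 97 below 0 and 11 above, while that of all genes tested was 0.01. All 3 shSATB1 libraries lay below all 3 shCtrl libraries for 56 members and above them for 1, MT-CYB, against 23.4% and 21.7% of all genes tested. Most differences were small, since 3 members fell by 1.5-fold or more (NDUFAB1, COX5B and NDUFB10), a size reached by 2.47% of all genes tested. The 8 members not tested were the tissue-specific isoform genes COX4I2, COX6A2, COX7A1, COX7B2 and COX8C, the gene ATP5MGL and the read-through genes NDUFC2-KCTD14 and ATP5MF-PTCD1, each with 0 to 6 reads per library. These are bulk libraries, in which fewer cells with a transcript and less of it per cell cannot be told apart.

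**Figure D1:**
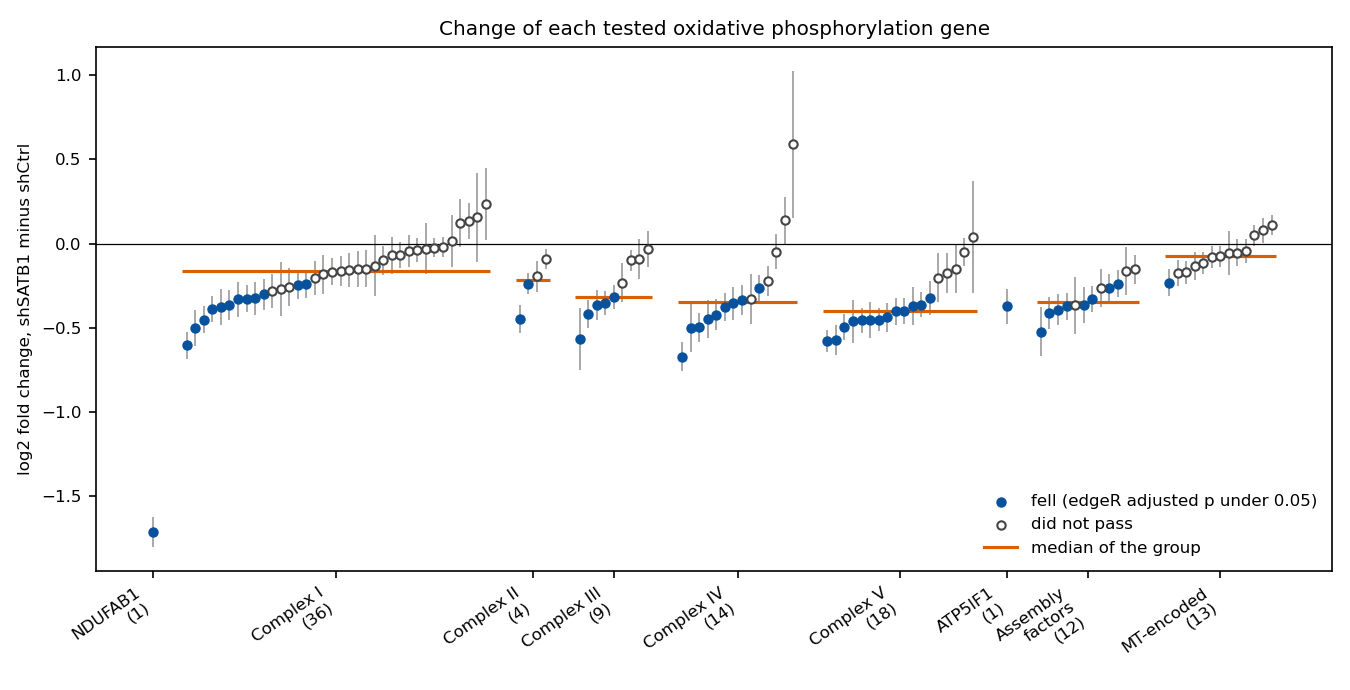
Fitted log2 fold change (shSATB1 minus shCtrl, vertical axis) of each of the 108 tested members, sorted within NDUFAB1, the nuclear-encoded subunits of complexes I to V, ATP5IF1, the assembly factors and the mitochondrially encoded (MT) subunits, with the number tested in brackets. Bars are ± 1 standard error, filled points fell by the edgeR test, open points did not pass and orange lines are group medians; NDUFAB1 at -1.71 stands below every other member, and the medians of complexes I to V run from -0.17 to -0.40.

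NDUFAB1 (ENSG00000004779, chromosome 16, 23581002 to 23596356, minus strand, hg38) measured 96.4, 124.0 and 103.9 CPM in the 3 control libraries and 34.8, 32.3 and 31.9 CPM in shSATB1 (916 to 3410 reads). The groups did not overlap, and the lowest control library was well above the highest shSATB1 library. Its mean fell 3.28-fold, from 108.1 ± 14.3 to 33.0 ± 1.57 CPM, a log2 fold change of -1.71 with a 95% interval from -1.90 to -1.52 (standard error 0.0887, edgeR adjusted p = 6.17e-08). By exact permutation of the library labels (two-sided), p was 0.1, which is as low as groups of 3 can reach. A fall of 2-fold or more was called for 0.502% of all genes tested, and NDUFAB1 was the only member among them. Every setting tried kept the call, with log2 fold changes between -1.80 and -1.39. NDUFAB1 reads equalled 5.05%, 5.17% and 4.95% of the summed reads of the 36 other nuclear-encoded complex I subunits in shCtrl. After the SATB1 hairpin NDUFAB1 stood at 2.00%, 1.73% and 1.77% of that sum, again without overlap between the groups. Its only annotated pseudogene copy held 6 reads over all libraries against 11706 in NDUFAB1, and no coding base of NDUFAB1 is shared with an exon of another gene.

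The promoter window of NDUFAB1 is shown because this was the member with the largest fall. It runs from 250 bases before to 50 after the RefSeq start (GRCh38.p14, chr16:23596267-23596566, minus strand) and reads 5′ to 3′ as follows.
NDUFAB1: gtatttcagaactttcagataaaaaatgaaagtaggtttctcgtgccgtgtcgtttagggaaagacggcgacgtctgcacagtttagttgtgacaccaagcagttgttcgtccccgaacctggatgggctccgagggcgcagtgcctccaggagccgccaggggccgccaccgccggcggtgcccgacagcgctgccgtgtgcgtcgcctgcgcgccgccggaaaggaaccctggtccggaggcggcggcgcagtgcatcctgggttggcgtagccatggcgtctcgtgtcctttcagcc
None of the 3 motifs searched, the NRF1 core GCATGCGC, the ETS core CCGGAAG and the YY1 site AAGATGGCG on either strand, was found in it. The NRF1 core was found in 3.05%, the ETS core in 10.3% and the YY1 site in 1.75% of all promoters in the table.

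The neighbours of NDUFAB1 did not share the size of its fall. Of 7 other genes tested within 100 kb, 3 fell, each by less than 1.5-fold, against 16.6% that fell among all genes tested. Whether 3 of 7 departs from that share was not tested. UBFD1, a ubiquitin-domain protein gene that ends 6613 bases away, fell from 122.9 ± 4.86 to 91.4 ± 6.49 CPM (log2 fold change -0.43, edgeR adjusted p = 0.000414). GGA2, a trafficking adaptor gene 59007 bases away, fell from 92.0 ± 3.56 to 65.6 ± 2.20 CPM (log2 fold change -0.49, edgeR adjusted p = 7.94e-05). PLK1, the mitotic kinase gene, fell from 132.8 ± 4.92 to 117.2 ± 5.61 CPM (log2 fold change -0.18, edgeR adjusted p = 0.0417). PALB2, whose product partners BRCA2 and which lies 6804 bases away on the side of the NDUFAB1 start, had 38.6 ± 0.960 and 35.3 ± 1.46 CPM and did not pass (edgeR adjusted p = 0.173). EARS2, DCTN5 and AC008870.2 did not pass either, with log2 fold changes of -0.09, 0.03 and 0.05.

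**Figure D2:**
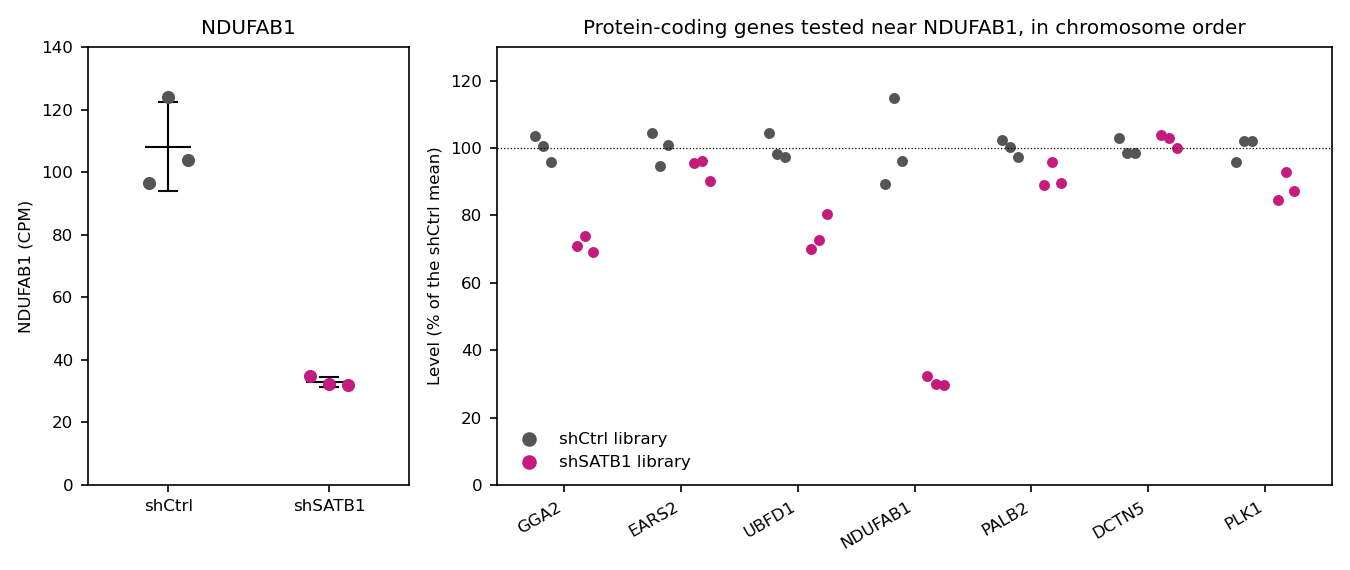
Left, NDUFAB1 in each library in CPM, with the mean and SD of each group of 3. Right, each library of NDUFAB1 and of the protein-coding genes tested within 100 kb, in chromosome order, as a percentage of that gene's shCtrl mean; the 3 shSATB1 libraries of NDUFAB1 lie far below those of GGA2, UBFD1 and PLK1, the neighbours that fell.

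Among the other 87 nuclear-encoded subunits, 81 were tested, of which 41 fell (50.6%) and 0 rose, with a median log2 fold change of -0.26. The shares of all genes tested that fell and rose were 16.6% and 14.3%. By complex, the falls were 12 of 36 in complex I, 2 of 4 in complex II, 5 of 9 in complex III, 9 of 14 in complex IV and 13 of 18 in complex V. The medians were -0.17, -0.22, -0.32, -0.34 and -0.40 in that order, and the differences between complexes were not tested. CYC1, a further complex III subunit, lies outside the symbol rule and is given with the other lists. Genes were sorted into complexes by symbol, which need not mean a subunit of the finished complex. COX7A2L in complex IV and ATP5S in complex V were counted this way and did not pass. The summed CPM of the nuclear-encoded subunits was 7226, 8883 and 7751 in shCtrl 1, 2 and 3 and 6114, 6449 and 6205 in the 3 libraries with the SATB1 hairpin. The groups did not overlap, and the shSATB1 mean was 78.7% of the shCtrl mean. shCtrl 2 was the highest of the 6 libraries for 67 of the 81 subunits (82.7%), against 27.3% of all genes tested, and it was the library with the fewest reads outside annotated exons. Without shCtrl 2 the count was 36 that fell and 1 that rose (NDUFA5), with a median of -0.17. Of all 18043 genes tested in that fit, 2804 fell and 2580 rose.

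In complex I, 6 of 11 NDUFB, 4 of 8 NDUFS, 1 of 3 NDUFV, 0 of 2 NDUFC and 1 of 12 NDUFA subunits fell, and the differences between these families were not tested. Those without a call include NDUFA7, NDUFA9, NDUFA13, NDUFB8, NDUFC2 and NDUFV2, whose levels are uncertain. They share 55.2% to 85.2% of their coding bases with exons of another gene on the same strand. NDUFB10, an accessory subunit of the membrane arm, measured 115.1, 144.2 and 124.7 CPM in the 3 control libraries and 81.2, 89.4 and 82.1 CPM in shSATB1. These groups did not overlap, and the fall was 1.52-fold (log2 fold change -0.60 with a standard error of 0.0804, edgeR adjusted p = 0.000118). NDUFB7 and NDUFB3, further accessory subunits of the membrane arm, fell from 61.6 ± 10.2 to 43.5 ± 4.46 CPM and, for the latter, 54.5 ± 5.90 to 39.9 ± 0.701 CPM, with log2 fold changes of -0.50 and -0.45. NDUFV1, the core subunit that binds NADH and the flavin, fell from 226.8 ± 22.7 to 173.1 ± 9.99 CPM (log2 fold change -0.39, edgeR adjusted p = 0.00181). NDUFS5, an accessory subunit at the intermembrane-space side, fell from 181.7 ± 27.1 to 147.4 ± 8.60 CPM (log2 fold change -0.30, edgeR adjusted p = 0.0212). The call on NDUFS5 was lost without shSATB1 1 or without shSATB1 3 (edgeR adjusted p = 0.109 and 0.103). The core iron-sulfur subunit NDUFS1 had 103.5 ± 4.17 CPM in shCtrl and 102.0 ± 1.33 CPM in shSATB1 and did not pass. NDUFA10, an accessory subunit, had 128.0 ± 0.666 and 125.8 ± 2.76 CPM with edgeR adjusted p = 0.773.

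NDUFB10 is shown as the subunit of complex I, other than NDUFAB1, with the largest fall. Its RefSeq promoter window (GRCh38.p14, chr16:1959288-1959587, plus strand) held none of the 3 motifs.
NDUFB10: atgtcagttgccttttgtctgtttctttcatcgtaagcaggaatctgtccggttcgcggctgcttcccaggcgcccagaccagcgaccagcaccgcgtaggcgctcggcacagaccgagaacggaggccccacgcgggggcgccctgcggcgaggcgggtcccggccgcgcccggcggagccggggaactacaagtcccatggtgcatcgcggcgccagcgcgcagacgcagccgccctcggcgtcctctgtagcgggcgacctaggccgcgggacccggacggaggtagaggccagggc

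In complex II, SDHB, the iron-sulfur subunit, measured 87.3, 110.2 and 94.3 CPM in the 3 control libraries and 67.0, 74.4 and 72.3 CPM in shSATB1. All shSATB1 libraries lay below all control libraries, with a log2 fold change of -0.45 and a standard error of 0.0823 (edgeR adjusted p = 0.00115). SDHA, the flavoprotein subunit, fell from 156.3 ± 9.49 to 132.3 ± 1.11 CPM (log2 fold change -0.24, edgeR adjusted p = 0.0101), a call lost without shSATB1 1 or shSATB1 3 (edgeR adjusted p = 0.0629 and 0.0587). SDHA is also uncertain because 3 annotated pseudogene copies held 28.2% of the reads in SDHA and its copies together, with 4264 reads in the copies in shCtrl and 5218 in shSATB1. The membrane anchors SDHC and SDHD did not pass, with 118.1 ± 2.29 and 110.9 ± 2.08 CPM for SDHC and 32.0 ± 4.03 and 27.98 ± 1.61 CPM for SDHD.

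In complex III, UQCRH, the hinge protein subunit, measured 173.0, 224.6 and 192.2 CPM in the 3 control libraries and 147.1, 150.5 and 143.3 CPM in shSATB1. The groups did not overlap, and the log2 difference was -0.42 with a standard error of 0.0824 (edgeR adjusted p = 0.00181). UQCRFS1, the Rieske iron-sulfur protein, fell from 119.3 ± 9.41 to 93.4 ± 3.34 CPM, a log2 fold change of -0.35. UQCRC1 and UQCRC2 are the core proteins, of which UQCRC1 fell from 266.0 ± 21.6 to 213.7 ± 11.2 CPM, while UQCRC2 had 317.3 ± 18.1 and 296.4 ± 4.72 CPM and did not pass (edgeR adjusted p = 0.252). UQCR10, a small subunit, fell from 60.8 ± 8.01 to 47.1 ± 2.82 CPM, a call lost without shSATB1 1 (edgeR adjusted p = 0.0517). UQCRHL, a close relative of UQCRH on chromosome 1, fell from 3.58 ± 0.340 to 2.41 ± 0.529 CPM (edgeR adjusted p = 0.0325). Its call was lost without any one of shCtrl 2, shCtrl 3, shSATB1 1 and shSATB1 2 (edgeR adjusted p = 0.0515 to 0.141), and reads of near-identical copies may be split between it and UQCRH.

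UQCRH is shown as the subunit of complex III with the largest fall among those with a promoter window, since none was found for UQCRHL. Its promoter window (GRCh38.p14, chr1:46303448-46303747, plus strand) has 1 ETS core, in capitals, on the strand opposite to the gene.
UQCRH: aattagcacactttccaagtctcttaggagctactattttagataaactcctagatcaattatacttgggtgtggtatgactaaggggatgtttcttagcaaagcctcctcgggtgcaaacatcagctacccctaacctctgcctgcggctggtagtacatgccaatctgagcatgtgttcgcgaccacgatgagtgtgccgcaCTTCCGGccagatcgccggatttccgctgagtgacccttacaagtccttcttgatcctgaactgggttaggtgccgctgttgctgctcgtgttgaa
The first base of the ETS core lies at -46 from the RefSeq start.

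In complex IV, COX5B, a nuclear-encoded subunit of cytochrome c oxidase, measured 88.2, 111.9 and 92.2 CPM in the 3 control libraries and 58.4, 64.3 and 60.8 CPM in shSATB1. The groups did not overlap, and the fall of 1.59-fold was the largest among the members after NDUFAB1 (log2 fold change -0.67 with a standard error of 0.0846, edgeR adjusted p = 7.70e-05). COX5A, another peripheral subunit of the enzyme, fell from 163.3 ± 22.9 to 115.7 ± 3.10 CPM, a log2 fold change of -0.50. COX4I1, the ubiquitous isoform of subunit 4, fell from 298.7 ± 35.1 to 230.2 ± 14.5 CPM, a log2 fold change of -0.38. COX6C and COX7C, small membrane subunits, fell from 158.1 ± 34.9 to 115.7 ± 3.35 CPM and, for the latter, 198.1 ± 33.3 to 154.8 ± 9.25 CPM. The COX6C call was lost without shSATB1 3 (edgeR adjusted p = 0.05001) and the COX7C call without shSATB1 1 or 3 (edgeR adjusted p = 0.0833 and 0.0656). COX8A, a small membrane subunit, fell from 7.89 ± 1.61 to 5.58 ± 0.0939 CPM, a call lost without shCtrl 2 or without any 1 of the shSATB1 libraries (edgeR adjusted p = 0.0606 to 0.0699).

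Of the isoform pairs of complex IV, the ubiquitous forms carried the reads. COX4I1 was tested and fell, while COX4I2, the lung and hypoxia-responsive isoform, had at most 0.106 CPM. COX6B1 fell from 105.7 ± 15.1 to 78.9 ± 6.12 CPM, and its testis isoform COX6B2 had 0.351 ± 0.199 and 0.532 ± 0.0729 CPM and did not pass. COX6A1 had 7.91 ± 1.37 and 6.29 ± 0.997 CPM and did not pass (edgeR adjusted p = 0.110), with the muscle isoform COX6A2 at 0 reads. COX7A2 had 111.9 ± 15.1 and 95.8 ± 7.09 CPM (edgeR adjusted p = 0.0729) and COX7A2L, which acts in supercomplex assembly, had 46.9 ± 7.56 and 45.4 ± 3.65 CPM (edgeR adjusted p = 0.761), while the muscle form COX7A1 had at most 0.222 CPM. NDUFA4, once assigned to complex I and counted here with complex IV, fell from 106.0 ± 11.8 to 88.2 ± 2.71 CPM, and its hypoxia-responsive paralog NDUFA4L2 had 4.36 ± 0.324 and 4.81 ± 0.449 CPM and did not pass. The NDUFA4 call was lost without shCtrl 3 or without any 1 of the shSATB1 libraries (edgeR adjusted p = 0.0537 to 0.0999).

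COX5B is shown as the subunit of complex IV with the largest fall. Its window (GRCh38.p14, chr2:97645812-97646111, plus strand) has 1 NRF1 core at -136 and 2 ETS cores at -37 and -5, all in capitals and on the gene's strand.
COX5B: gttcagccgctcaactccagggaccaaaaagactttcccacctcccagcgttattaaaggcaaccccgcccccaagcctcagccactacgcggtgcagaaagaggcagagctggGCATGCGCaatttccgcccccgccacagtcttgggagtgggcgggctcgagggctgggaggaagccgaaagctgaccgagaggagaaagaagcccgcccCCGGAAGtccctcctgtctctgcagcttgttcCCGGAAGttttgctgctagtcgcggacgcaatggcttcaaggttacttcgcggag

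In complex V, ATP5F1B, the catalytic beta subunit of the ATP synthase, measured 924.1, 1037 and 934.1 CPM in the 3 control libraries and 645.9, 668.9 and 626.2 CPM in shSATB1. No libraries overlapped between the groups, and the log2 difference was -0.58 with a standard error of 0.0656 (edgeR adjusted p = 3.43e-05). ATP5F1A, the alpha subunit, fell from 648.7 ± 49.9 to 474.2 ± 10.5 CPM (log2 fold change -0.45, edgeR adjusted p = 0.000254). The genes ATP5MC1, ATP5MC2 and ATP5MC3, encode the same mature c subunit of the rotor ring, and all fell. Their levels went from 75.5 ± 6.62 to 53.6 ± 4.20 CPM for the first, 145.1 ± 12.3 to 112.9 ± 6.68 CPM for the second and 201.7 ± 21.4 to 147.0 ± 1.48 CPM for the third, with log2 fold changes of -0.49, -0.36 and -0.46. ATP5MD, a small membrane subunit involved in dimer formation, measured 57.1, 75.5 and 64.6 CPM in the 3 control libraries and 42.0, 45.2 and 45.5 CPM in shSATB1. The ATP5MD groups did not overlap, with a log2 fold change of -0.57 and a standard error of 0.0900 (edgeR adjusted p = 0.000411). ATP5MF, subunit f, fell from 18.9 ± 3.70 to 13.7 ± 1.18 CPM, a call lost without shCtrl 3, shSATB1 2 or shSATB1 3 (edgeR adjusted p = 0.0587 to 0.0914). ATP5IF1, which inhibits the hydrolysis of ATP by complex V, fell from 96.1 ± 14.4 to 74.2 ± 8.56 CPM (log2 fold change -0.37, edgeR adjusted p = 0.0135), a call lost without shSATB1 1 (edgeR adjusted p = 0.0926).

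ATP5MD is shown as the subunit of complex V with the largest fall among those with a promoter window, since none was found for ATP5F1B. Its window (GRCh38.p14, chr10:103396426-103396725, minus strand) has 3 ETS cores in capitals, of which those beginning at -163 and -160 overlap on opposite strands and the third begins at -3.
ATP5MD: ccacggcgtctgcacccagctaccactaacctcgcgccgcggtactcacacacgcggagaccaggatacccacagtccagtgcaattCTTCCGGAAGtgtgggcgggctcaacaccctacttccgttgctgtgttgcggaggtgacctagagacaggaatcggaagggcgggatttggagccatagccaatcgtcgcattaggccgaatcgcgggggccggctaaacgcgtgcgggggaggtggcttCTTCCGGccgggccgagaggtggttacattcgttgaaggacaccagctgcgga

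RefSeq promoter windows of 300 bases were found for 84 of the 103 nuclear-encoded members, 70 of them subunits other than NDUFAB1. The NRF1 core was present in 13 of those 70 (18.6%), against 3.05% of all 35116 promoters in the table and 3.74% of the protein-coding ones. The ETS core was present in 20 (28.6%), against 10.3% of all and 12.8% of protein-coding promoters, and the YY1 site in 8 (11.4%), against 1.75% and 2.41%. Among subunits with a window, the NRF1 core was in 8 of 34 that fell and 5 of 33 that did not pass, the ETS core in 10 of 34 and 10 of 33, and the YY1 site in 3 of 34 and 5 of 33, and these differences were not tested. Each motif was searched on both strands and counted on its own, so a promoter can hold several, and a match is a description of letters rather than a binding site.

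The assembly factors among the members do not form part of the finished complexes. Of the 12, 8 fell (66.7%) and 0 rose, against 16.6% and 14.3% of all genes tested. Their median log2 fold change was -0.35, where that of all genes tested was 0.01. Their median exonic length was 2368 bases, and 44.5% of all genes above 8 CPM fell in the length group up to 3142 bases. Among the assembly factors, 6 of the 8 NDUFAF genes fell and 2 of the 4 SDHAF genes fell. NDUFAF8, a partner of the complex I factor NDUFAF5, fell from 41.3 ± 5.62 to 31.01 ± 2.56 CPM (log2 fold change -0.41), and NDUFAF3, an early complex I factor, from 44.8 ± 4.32 to 34.6 ± 1.503 CPM (log2 fold change -0.37). SDHAF3 and SDHAF1, which help place iron-sulfur clusters in SDHB, fell from 25.9 ± 3.04 to 19.7 ± 0.144 CPM and, for the latter, 17.1 ± 1.44 to 13.3 ± 1.75 CPM. The SDHAF1 call was lost without shSATB1 1 or 3 (edgeR adjusted p = 0.118 and 0.0784). Without each library in turn the count of assembly factors that fell was 4 to 11, and 4 of the 8 fell every time. Over all genes tested the falls ran from 1817 of 17968 to 3562 of 17999 in that series.

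The 13 mitochondrially encoded subunits had a median higher and closer to 0 than the nuclear-encoded ones, a difference that was not tested. It stayed higher, but was no longer closer to 0, after correction for length and GC content (0.15 against -0.14). The same held with the share of reads outside annotated exons as a covariate (0.09 against 0.03). Of the 13 subunits 1 fell and 0 rose, and 3 had an unadjusted edgeR p under 0.05, with a median log2 fold change of -0.08. Among all genes tested, 16.6% fell, 14.3% rose and 7251 of 17520 had an unadjusted edgeR p under 0.05. MT-ATP6, a subunit of the proton channel of complex V, measured 2600, 3204 and 2699 CPM in the 3 control libraries and 2448, 2476 and 2317 CPM in shSATB1. The groups did not overlap but came close, and the log2 difference was -0.23 with a standard error of 0.0784 (edgeR adjusted p = 0.0375). Its call was lost without shCtrl 3 or without any 1 of the shSATB1 libraries (edgeR adjusted p = 0.0719 to 0.182). MT-CYB, cytochrome b of complex III, measured 3186, 3274 and 3150 CPM in the 3 control libraries and 3461, 3506 and 3387 CPM in shSATB1. It was the only member with every shSATB1 library above every shCtrl library, yet its log2 fold change of 0.11 did not pass (edgeR adjusted p = 0.188). MT-CO1, MT-CO2 and MT-CO3, the catalytic core of complex IV, had log2 fold changes of -0.08, -0.17 and -0.17 and did not pass. The 7 complex I subunits lay between -0.13 for MT-ND3 and 0.08 for MT-ND4L, with MT-ND1 at 0.05, MT-ND2 at -0.04, MT-ND4 at -0.12, MT-ND5 at -0.08 and MT-ND6, the member on the minus strand, at -0.05. MT-ATP8, with 10.9 ± 1.57 and 10.5 ± 1.59 CPM, did not pass, and 21.1% of its coding bases are shared with MT-ATP6.

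The mitochondrial transcripts took 3.53%, 3.76% and 3.61% of gene reads in the controls and 3.72%, 3.65% and 3.49% after the SATB1 hairpin, so the groups overlapped. Per exonic length, as reads per exonic base scaled to a common total (TPM), MT-CO2 was highest in shCtrl at 25890 ± 1350 TPM, followed by MT-CO1 at 23050 ± 664 and MT-CO3 at 21880 ± 605 TPM. The values of MT-CO1 and MT-CO3 differ by less than the sum of their SDs, and MT-ND6 was lower at 2982 ± 254 TPM. Among the nuclear-encoded subunits ATP5F1B was highest at 1536 ± 34.2 TPM, then NDUFS5 at 1222 ± 125 TPM, and NDUFAB1 measured 249.1 ± 21.2 TPM. Of the mitochondrial ribosomal RNAs, MT-RNR2 measured 3094, 3757 and 3279 CPM in the 3 control libraries and 3854, 3832 and 3773 CPM in shSATB1, with no overlap, and did not pass (edgeR adjusted p = 0.0832). The summed CPM of the 13 subunits in shSATB1 was 93.9% of that in shCtrl, beside 84.5%, 84.8%, 84.4%, 76.9% and 72.3% for the nuclear-encoded subunits of complexes I to V.

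**Figure D3:**
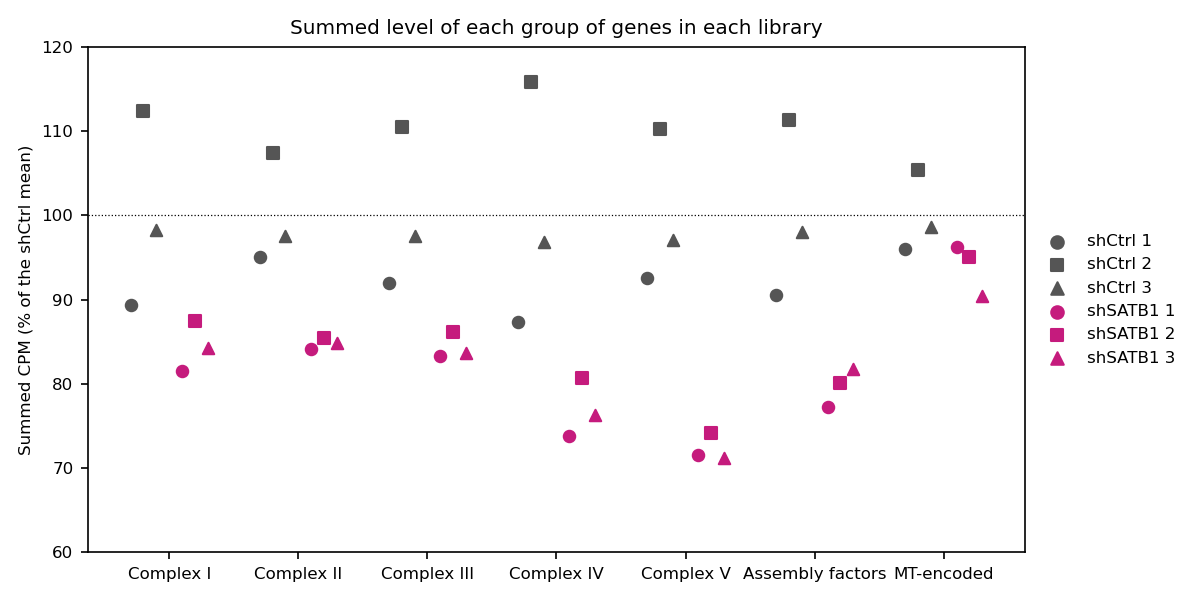
Summed CPM of the nuclear-encoded subunits of each complex, the assembly factors and the mitochondrially encoded subunits (MT-encoded) in each library, as a percentage of the shCtrl mean (dotted line). Symbols give the replicate number; the groups do not overlap for any nuclear set and do overlap for the mitochondrially encoded set, and shCtrl 2 is the highest library in every set.

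Gene length went with the differences in these libraries, and the nuclear-encoded subunits are short, with a median exonic length of 2652 bases against 4122 over all genes tested. Among all genes above 8 CPM, in 5 equal groups by length, 44.5% fell in the shortest group (up to 3142 bases) and 31.8% in the next (up to 4583 bases). Of the nuclear-encoded subunits above 8 CPM, 25 of the 37 in the shortest group fell (67.6%) and 8 of the 13 in the next (61.5%). In the 3 longer groups 22.5%, 16.6% and 10.9% of all genes fell, beside 3 of 7, 2 of 3 and 1 of 8 (12.5%) of the subunits, and 33.9% of all genes rose in the longest group. After correction for exonic length and GC content, 30 nuclear-encoded subunits fell and 0 rose, 28 of them among the 41, and the median was -0.14 where that of all genes was 0.06. The same correction left NDUFAB1 at -1.46, moved the median of the mitochondrially encoded subunits to 0.15, and called 0 of them lower and 6 higher (MT-ND1, MT-ND2, MT-ND4L, MT-ND6, MT-CYB and MT-CO1). Over all genes tested, 15.8% fell and 18.5% rose in that fit.

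The share of reads outside annotated exons separated the groups, so share and hairpin cannot be fully told apart in a fit that takes the share as a covariate. In that fit 4 nuclear-encoded subunits fell (NDUFB10, COX5B, ATP5F1A and ATP5F1B), 4 rose (NDUFA5, NDUFC1, UQCRB and COX7A2L) and the median was 0.03, while 1256 of all genes fell (7.17%) and 854 rose (4.87%). NDUFAB1 stayed called at -1.39. Scaling to total reads in genes moved the median of all genes to 0.10 and the calls over all genes from 2910 lower and 2500 higher to 1899 lower and 3702 higher, with the median of the nuclear-encoded subunits at -0.18. Of the 41 subunits that fell, 23 did so with each library left out in turn, 10 of them in complex V, 5 in complex I, 4 in complex IV, 3 in complex III and 1 in complex II.

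**Figure D4:**
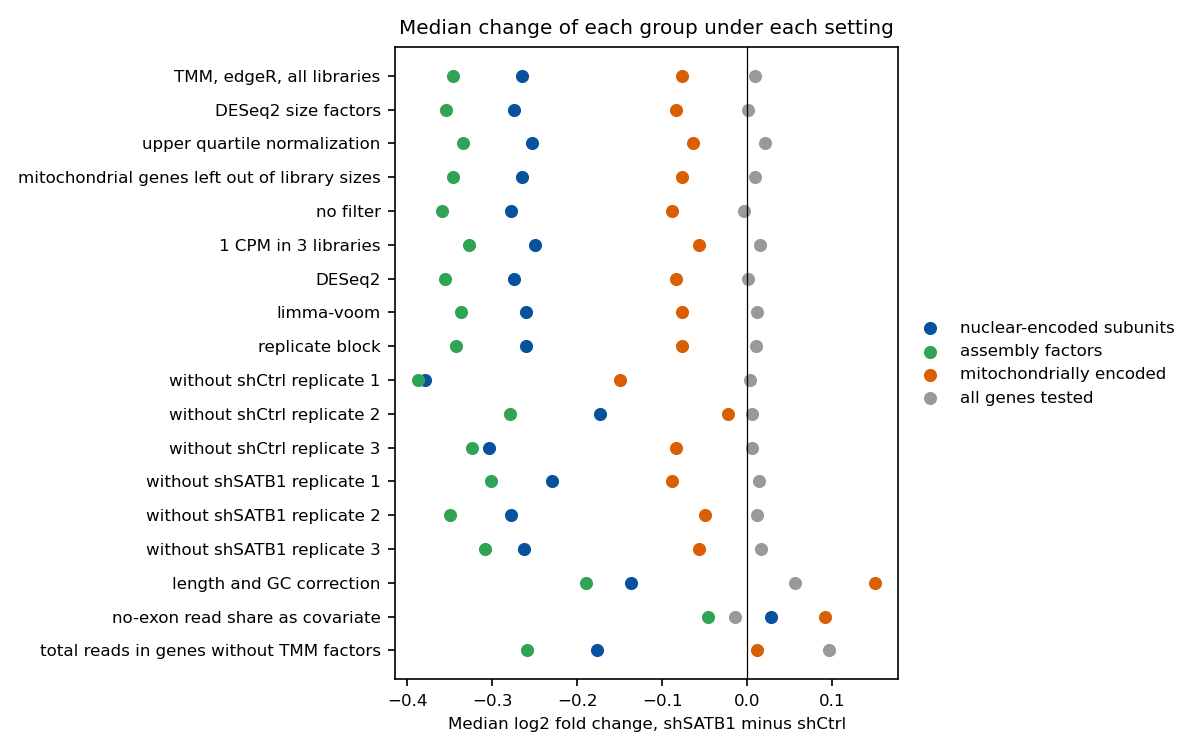
Median log2 fold change (shSATB1 minus shCtrl, horizontal axis) of the nuclear-encoded subunits, assembly factors, mitochondrially encoded subunits and all genes tested, under each setting (rows). The nuclear median is below that of all genes in every row but the one with the no-exon read share as covariate, where it is 0.03 against -0.01, and the mitochondrial median is above that of all genes with the length and GC correction and with the covariate.

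Some members could hardly be measured from these counts. For 12 of the 81 tested nuclear-encoded subunits, 50% or more of the coding bases are shared with an exon of another gene on the same strand in GENCODE 29. Their median level in shCtrl was 6.30 CPM (0.351 to 12.8), against 79.4 CPM (0.643 to 965.1) in the other 69, and 1 of the 12 fell (COX8A) against 40 of the 69. NDUFB8, an accessory subunit of complex I, shares 85.2% of its coding bases with AL133352.1 and had 1.53 ± 0.261 CPM. NDUFV2, the core partner of NDUFV1, shares 84.7% with AP005263.1, had 4.41 ± 0.987 CPM, and 45.8% of the reads in it and its pseudogene copy lay in the copy. UQCR11, a small subunit of complex III, shares 100% with AC005943.1. ATP5ME, subunit e of the ATP synthase, had 0.643 ± 0.0739 CPM and shares 44.0% with MYL5 on the opposite strand. The count tables keep reads listed as ambiguous apart from every gene, at 9.54% to 10.1% of the reads they list in shCtrl and 8.99% to 9.32% in shSATB1, with no overlap between the groups. The tables do not say which genes those reads belong to or how overlaps were resolved, and the part of those reads in these values was not tested, so these levels and their lack of a call are uncertain.

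**Figure D5:**
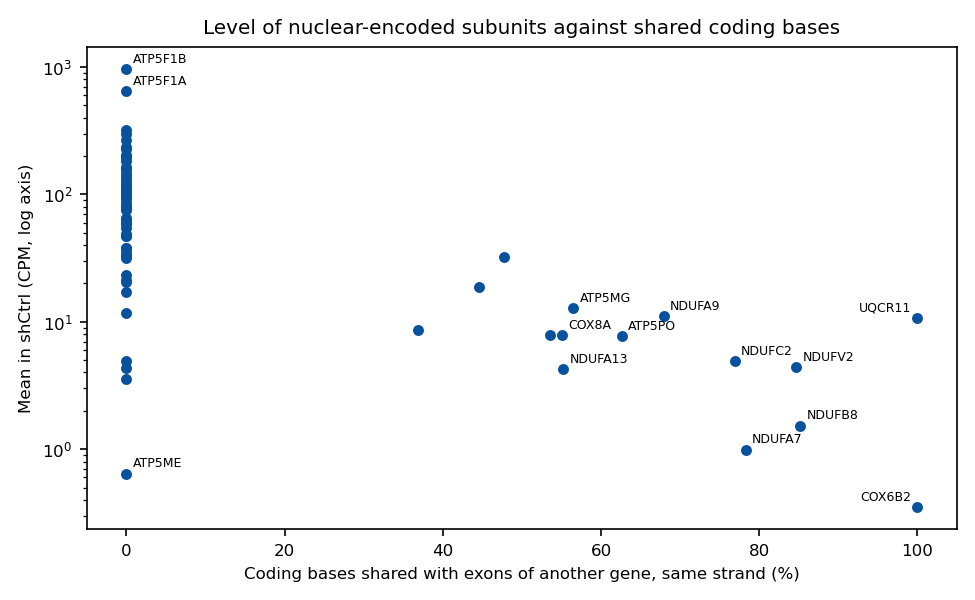
Mean shCtrl level in CPM (log axis) of each tested nuclear-encoded subunit against the percentage of its coding bases shared with exons of another gene on the same strand. The 12 genes at 50% or more lie at or below 12.8 CPM, and most others lie above them.

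The same test covered lists of genes outside the symbol rule that work with these complexes or, as CYC1 of complex III, belong to them. Of 16 electron carrier, ubiquinone and other subunit genes tested, 7 fell (43.8%) and 1 rose, against 16.6% and 14.3% of all genes tested. Median exonic length in this list was 4390 bases, and 31.8% of all genes above 8 CPM fell in the length group of 3146 to 4583 bases. CYC1, cytochrome c1, fell from 135.7 ± 9.83 to 107.5 ± 11.0 CPM (log2 fold change -0.34, edgeR adjusted p = 0.00575). ETFB of the electron transfer flavoprotein rose from 10.7 ± 0.770 to 13.4 ± 1.47 CPM (edgeR adjusted p = 0.0281). PDSS1, which makes the side chain of ubiquinone, fell from 40.5 ± 4.32 to 26.2 ± 1.76 CPM (log2 fold change -0.63, edgeR adjusted p = 0.000168), and the methyltransferase gene COQ3 from 13.6 ± 0.659 to 9.69 ± 0.798 CPM. COQ2, the prenyl transferase gene of the same pathway, fell from 12.9 ± 2.55 to 9.33 ± 0.355 CPM, a call lost without any 1 of the shSATB1 libraries (edgeR adjusted p = 0.0508 to 0.0683). Of 41 further assembly factors tested, with a median exonic length of 4165 bases, 15 fell (36.6%) and 2 rose. The 2 were COX20, from 2.00 ± 0.113 to 3.24 ± 0.400 CPM, and LYRM7, from 56.9 ± 1.23 to 66.5 ± 7.13 CPM (edgeR adjusted p = 0.0383). How the ETFB and LYRM7 calls fared without each library is not given here. COX20 is a chaperone of the complex IV subunit COX2, and its call was lost without shSATB1 3 (edgeR adjusted p = 0.0539), while LYRM7 acts in the insertion of the Rieske protein. DMAC1, a factor of the complex I membrane arm, fell from 48.6 ± 5.93 to 32.9 ± 2.26 CPM (log2 fold change -0.56).

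The list nearest to NDUFAB1 holds the enzymes of mitochondrial fatty acid synthesis, lipoylation and iron-sulfur assembly, in which the acyl carrier protein takes part. Of 20 tested, 7 fell (35%) and 0 rose, against 16.6% and 14.3% of all genes tested. The median log2 fold change of the list was -0.10. Its median exonic length was 3596 bases, in a length group where 31.8% of all genes above 8 CPM fell. GLRX5, a glutaredoxin that passes on iron-sulfur clusters, measured 65.2, 85.2 and 74.3 CPM in the 3 control libraries and 47.1, 46.4 and 46.3 CPM in shSATB1. The groups did not overlap, with a log2 fold change of -0.68 (edgeR adjusted p = 7.11e-05). LIPT2, a lipoyl transferase, fell from 4.40 ± 0.839 to 2.72 ± 0.213 CPM, and HSD17B8, a subunit of the ketoacyl reductase, from 8.74 ± 1.17 to 6.43 ± 0.300 CPM. The HSD17B8 call was lost without shCtrl 3, shSATB1 2 or shSATB1 3 (edgeR adjusted p = 0.0561 to 0.0712). The other genes that fell, named after their values were seen, were LYRM4 and NFS1, which bind the acyl carrier protein in the cysteine desulfurase complex, and MCAT and MECR of fatty acid synthesis, with log2 fold changes of -0.41, -0.37, -0.35 and -0.29.

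Of 25 genes of mitochondrial genome expression, 8 fell (32%) and 2 rose (8%), against 16.6% and 14.3% of all genes tested. Their median exonic length was 4283 bases, in a length group where 31.8% of all genes above 8 CPM fell. SLIRP, which stabilises mitochondrial mRNAs with LRPPRC, fell from 47.3 ± 9.07 to 29.5 ± 1.46 CPM (log2 fold change -0.68), and SSBP1, the mitochondrial single-stranded DNA-binding protein, from 138.3 ± 16.6 to 93.4 ± 0.507 CPM (log2 fold change -0.57). TFB1M, a methyltransferase of the small ribosomal RNA, rose from 9.65 ± 0.713 to 12.8 ± 0.803 CPM (log2 fold change 0.41). MTPAP, the mitochondrial poly(A) polymerase, rose from 42.2 ± 1.42 to 48.2 ± 0.837 CPM (edgeR adjusted p = 0.0363). How the MTPAP call fared without each library is not given here. Of 9 regulators tested, 3 fell (33.3%) and 0 rose. Their median exonic length was 5606 bases, in a length group where 22.5% of all genes above 8 CPM fell. MYC, a transcription factor gene, measured 486.1, 513.7 and 505.4 CPM in the 3 control libraries and 298.9, 317.9 and 310.4 CPM in shSATB1. The MYC groups did not overlap, with a log2 fold change of -0.70 (edgeR adjusted p = 3.23e-06). The coactivator genes PPARGC1B and PPRC1 fell from 49.5 ± 7.60 to 37.0 ± 0.152 CPM and, for the latter, 134.8 ± 13.2 to 116.3 ± 4.18 CPM. The PPRC1 libraries overlapped between the groups, and its call was lost without any 1 library except shCtrl 2 (edgeR adjusted p = 0.062 to 0.171). NRF1, GABPA and TFAM, transcription factors of nuclear and mitochondrial respiratory genes, had log2 fold changes of -0.07, -0.05 and -0.16 and did not pass.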

How the data were processed

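For each of the 6 libraries the authors deposited a table of raw counts of reads per Ensembl gene, without normalization or pooling. The submitters' processing notes name Trim Galore, STAR, HTSeq and hg38 but no versions or settings, with annotation release and strand setting not given in the sources used here. All gene IDs were matched to GENCODE 29. Groups and replicate numbers come from the sample titles. Lines that name no gene stayed out of library sizes and tests, and those for reads in no annotated exon held 7.77% to 11.7% of reads.

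The counts entered edgeR 4.0.16 (R 4.3.3) after TMM normalization and filterByExpr at a minimum count of 10, and shSATB1 was set against shCtrl by the quasi-likelihood F test with no covariate. Adjustment by Benjamini-Hochberg covered all 17520 genes tested at a threshold of 0.05, and the biological coefficient of variation was 7.27%. Intervals are at 95%. TPM were computed from counts over the union of exons. Promoters come from RefSeq GRCh38.p14. The fit was tested on simulated data with known changes.

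The members, lists, tests and other settings were chosen with earlier results of these data known. Named genes were SATB1, NDUFAB1, all mitochondrially encoded subunits, ATP5IF1, the c subunit genes, the isoform pairs, per complex and among assembly factors the called genes with the largest change at 2 CPM or more without overlap between groups and the highest CPM, and per other list the called genes with the largest change; others were chosen after their values were seen. Other settings were mitochondrial genes left out of library sizes, upper quartile normalization, size factors of DESeq2, DESeq2 1.42.0 itself, no filter, 1 CPM in 3 libraries, limma-voom (limma 3.58.1), omission of each library in turn, the replicate number as a block, a test against a 1.2-fold change, a correction for length and GC content (mgcv 1.9.3) and, as a covariate, the share of reads outside annotated exons. Scaling to total reads in genes was added after seeing the data.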

Additional observations from a re-analysis of the deposited data

How the results depend on the processing

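Under all settings NDUFAB1 kept its direction and its call, and its log2 fold change without each library in turn ran from -1.80 to -1.60. The count of nuclear-encoded subunits that fell (41) was 25 to 56 and the count that rose (0) was 0 to 1 without each library in turn, with 26 falls without shSATB1 1, 25 without shSATB1 3 and 1 rise without shCtrl 2. Among mitochondrially encoded subunits the falls (1) ran from 0 to 4 and the rises (0) from 0 to 1 in the same series, and among assembly factors the falls (8) from 4 to 11. Over all genes tested the falls ran from 1817 of 17968 without shSATB1 1 to 3562 of 17999 without shCtrl 1. The rises ran from 1650 of 17925 without shSATB1 3 to 3218 of 17999 without shCtrl 1. With a null hypothesis of a 1.2-fold change, 9 nuclear-encoded subunits, 0 mitochondrially encoded subunits and 0 assembly factors fell, beside 3.98% of all genes tested. With the correction for length and GC content, 0 mitochondrially encoded subunits fell and 6 rose, and 4 assembly factors fell. With the covariate, 4 nuclear-encoded subunits fell and 4 rose, 0 mitochondrially encoded subunits fell and 1 rose (MT-ND3), and 0 assembly factors fell. With total reads in genes, 0 mitochondrially encoded subunits fell and 1 rose, and 5 assembly factors fell. Without a filter 3 mitochondrially encoded subunits fell, and DESeq2 called 2. The cause of these changes was not tested. The depth limits what can be said of members under a few CPM.

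The deviations of same-numbered libraries correlated at 0.296, 0.181 and -0.075 over 10204 genes, and those of different-numbered libraries at -0.275 to 0.056. These values do not settle whether the replicate numbers pair the libraries. With the replicate block 44 nuclear-encoded subunits, 1 mitochondrially encoded subunit and 8 assembly factors fell, and NDUFAB1 stood at -1.705 (edgeR adjusted p = 3.26e-09). Over all 17520 genes 3120 fell and 2783 rose in that fit, against 2910 and 2500 without the block.

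Of the 108 tested members, the direction turned for 24 with the correction for length and GC content, for 54 with the covariate and for 18 without at least 1 of the libraries. Among the genes named by rule, these turned. With the correction for length and GC content the log2 fold changes were 0.20 for MT-ND2, 0.088 for MT-ND3, 0.12 for MT-ND4, 0.13 for MT-ND5, 0.19 for MT-ND6, 0.17 for MT-CO1, 0.099 for MT-CO2, 0.10 for MT-CO3, 0.028 for MT-ATP6 and 0.15 for MT-ATP8. With the covariate they were 0.17 for MT-ND2, 0.23 for MT-ND3, 0.0072 for MT-ND4, -0.10 for MT-ND4L, 0.20 for MT-ND6, 0.092 for MT-CO2, 0.0088 for MT-CO3, 0.057 for MT-ATP6, 0.24 for MT-ATP8, 0.11 for NDUFS5, 0.017 for UQCRC2, 0.019 for COX8A, 0.11 for COX6C, 0.10 for COX7C, 0.0100 for ATP5MF, 0.16 for COX7A2, 0.36 for COX7A2L, 0.028 for NDUFA4 and 0.062 for ATP5IF1. With total reads in genes they were 0.046 for MT-ND2, 0.0055 for MT-ND5, 0.034 for MT-ND6, 0.012 for MT-CO1, 0.031 for MT-ATP8 and 0.042 for COX7A2L. Without each library in turn, MT-ND2 ran from -0.12 to 0.024, MT-ND6 from -0.16 to 0.025, MT-ATP8 from -0.18 to 0.068 and COX7A2L from -0.17 to 0.076, with values above 0 without shCtrl 2 for all 4, without shSATB1 1 for MT-ATP8 and COX7A2L (0.012 and 0.022), and without shSATB1 2 for MT-ATP8 (0.012).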
